A study of Mus musculus with 35 samples.

Results

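HSP90 and the other heat-shock chaperones were followed as 10 genes, Hsp90aa1, Hsp90ab1, Hspa1a, Hspa1b, Hspa8, Hspb1, Hsph1, Dnajb1, Hspd1 and Hspe1, chosen by gene symbol from the 55487 genes of each table. All 10 were present in the 4 tables and passed the low-count filter in each. The study examined IAMP, a micropeptide encoded in mice by 4930523C07Rik that binds HSP90 in cardiac fibroblasts (CFs), and the question addressed here was whether the mRNAs of HSP90 and its partner chaperones change when IAMP is lost. Primary CFs from adult mice, grown as passaged noncardiomyocytes, received a nontargeting siRNA (Scrambled) or 1 of 2 siRNAs against IAMP (IAMP siR-1 and IAMP siR-2), with 3 libraries per group, in each of 3 experiments: no stimulus, IL-17, and TGF-β. In the IL-17 experiment, the siRNA was given for 24 hours and IL-17 for a further 24 hours, and times for the other experiments were not given in the sources used here. Whole hearts came from 8-week-old C57BL/6 mice of a CRISPR-Cas9 frameshift line, 4 labelled Het and 4 labelled KO. By the study's breeding scheme HET mice are heterozygous, so the Het controls carry the altered allele too.

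Heat-shock proteins bind unfolded or metastable proteins and use ATP, directly or through partners, to fold, hold or hand them on. The cytosolic HSP90 proteins finish the folding of signaling proteins and transcription factors, HIF-1α among them, after HSP70 and its J-domain partner have loaded them. Most of these genes carry heat-shock elements, inverted repeats of the unit GAA spaced by 2 bases, through which HSF1 raises their transcription when unfolded proteins accumulate.

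Sequences at the starts of 4 of the genes are shown because they carry this repeat and differ in how many units they hold. A further reason was that with IAMP siR-2 the mRNAs of Hspe1 and Hsph1 rose in untreated cells, that of Hspa1b fell and that of Hspb1 was not called. With IAMP siR-1 in untreated cells, Hsph1 (log2 fold change -0.256), Hspb1 (-0.431) and Hspa1b (-0.389) fell, and Hspe1 (0.014) was not called. Under TGF-β, Hsph1 was not called with IAMP siR-2 (0.02). Whether the number of units bears on these responses was not tested. RefSeq gave promoter windows (250 bases before to 50 bases after a start, build GRCm38.p6) for 7 of the 10 genes, none of them Hsp90aa1, Hsp90ab1 or Hspa8. In the lines that follow, capitals mark units of GAANNTTC or TTCNNGAA, each of which is its own reverse complement so that both strands are covered, and longer rows of units overlap these pairs. Hspa1b upstream of its start was read from chr17:34959239-34959488 (minus strand), and Hspb1 from chr5:135887669-135887918 (plus strand). For Hspe1 (chr1:55088053-55088082, plus strand) and Hsph1 (chr5:149636279-149636308, minus strand) only the 30 bases around 3 or more units in a row are shown.
Hspa1b: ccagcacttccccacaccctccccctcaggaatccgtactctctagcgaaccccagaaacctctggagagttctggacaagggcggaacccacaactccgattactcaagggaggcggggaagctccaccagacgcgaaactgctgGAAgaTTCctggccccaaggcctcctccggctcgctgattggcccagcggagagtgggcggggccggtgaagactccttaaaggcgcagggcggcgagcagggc
Hspb1: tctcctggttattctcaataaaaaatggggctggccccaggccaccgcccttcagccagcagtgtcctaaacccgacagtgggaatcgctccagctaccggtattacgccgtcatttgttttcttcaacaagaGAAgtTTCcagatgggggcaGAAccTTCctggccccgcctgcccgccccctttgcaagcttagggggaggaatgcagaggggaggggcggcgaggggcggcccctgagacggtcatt
Hspe1: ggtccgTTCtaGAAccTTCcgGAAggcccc
Hsph1: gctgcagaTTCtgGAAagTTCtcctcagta
Hspa1b and Hspa1a each held 1 pair, starting 104 bases before the start. The windows of these neighbouring genes were 98.7% identical over 300 bases, with the differences C44T, T47C, T249G and C276T (Hspa1a base, position from the 5′ end of the window, Hspa1b base). Hspb1 held 2 pairs, 117 and 97 bases before its start. The Hspe1 stretch held 4 units in 18 bases, first base 89 bases before the start, and lies before Hspe1 inside the annotated span of Hspd1, a gene on the opposite strand whose first exon overlaps that of Hspe1. The same units fall in 1 of the 2 windows of Hspd1, and the other held none. In Hsph1, 3 units lie just inside the transcribed sequence, beginning at base 16 after the start, and a further pair upstream of it is not shown. A pair of units occurred in 15.06% of all 32851 windows and 3 units in a row in 0.6%, against 7 and 4 of the 10 windows of the 7 genes. Those windows were not independent. The Hsph1 windows overlap and hold the same units, Hspd1 and Hspe1 share theirs, and the Hspa1a and Hspa1b windows are nearly identical. The Dnajb1 windows held no match to these letters.

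Depth was 104139670 to 119232309 estimated counts per CF library and 23497027 to 23857313 counts per heart library. Among genes seen in only 1 library of a table, the most frequent value was 6 in each CF table and 1 in the hearts. A CF count may therefore stand for less than 1 read. Levels below are given as CPM, counts divided by library size, scaled with TMM over the 27 CF libraries or the 8 hearts unless stated otherwise. The mRNA of 4930523C07Rik fell from 22.1 to 25.7 CPM in the untreated Scrambled libraries to 2.53 to 3.51 under IAMP siR-1 and 1.77 to 1.89 under IAMP siR-2, and was lower in every knockdown library of the stimulated experiments as well. In hearts it was 15.9 to 18.8 CPM in Het and 15.2 to 17.3 in KO, which does not check the genotype, since a frameshift need not alter mRNA level. The 7 fibroblast markers were all present in CFs (summed level 8720 to 17400 CPM), the cardiomyocyte gene Myh6 was at 0 to 0.0983 CPM, and of 6 cardiomyocyte markers only Tnnt2 passed 1 CPM. Tnnt2 moved with the groups, with means of 93.4, 44.4 and 30.0 CPM in untreated Scrambled, siR-1 and siR-2 libraries, and its part in the results was not tested. The summed level of 5 macrophage and leukocyte markers was 54.3 to 58.4 CPM in untreated Scrambled cells, 56.6 to 59.7 under siR-1 and 71.9 to 76.0 under siR-2. In 5 CF libraries the hepatocyte transcript Alb had 1796 to 7739 estimated counts, against 0 to 134 in the other 22; these were untreated Scrambled replicate 3, IL-17 Scrambled replicates 1 and 3, TGF-β siR-1 replicate 2 and TGF-β siR-2 replicate 3. In such bulk samples, fewer cells of a type and less RNA per cell cannot be told apart.

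For levels per kilobase, CPM was divided by the length of all annotated exons of a gene joined over its transcripts, which can exceed the mRNA present. The order of genes depends on this length, which was 2999 bases for Hsp90ab1 and 4301 for Hspa8. Their undivided levels in untreated Scrambled CFs were 1605 to 1673 and 1521 to 1580 CPM. Per kilobase of exon, Hsp90ab1, the constitutive cytosolic HSP90β, had the highest level of the 10 genes in untreated Scrambled CFs at 549.4 CPM per kb. Hspa8, the constitutive HSC70, followed at 363 CPM per kb, and Hsp90aa1, the stress-inducible HSP90α, at 229 CPM per kb. The mitochondrial chaperonin HSP60 (Hspd1) had 114 CPM per kb and its cochaperonin HSP10 (Hspe1) 51.1 CPM per kb, with the small heat-shock protein Hspb1 between them at 73.1 CPM per kb. The lower end was formed by the HSP110-type exchange factor Hsph1 (16.5 CPM per kb, range 16.0 to 16.9), the J-domain protein Dnajb1 (15.9, range 15.5 to 16.4) and the inducible HSP70 gene Hspa1b (14.6, range 13.4 to 15.6), neighbours whose ranges met, and by Hspa1a at 5.12 CPM per kb. Hspa1a and Hspa1b encode nearly the same protein, so the split of reads between them is uncertain, and Hspa1a is also overlapped by the antisense gene Gm20481, which had 0 to 2 counts per library. Whether the counting used strand is not stated, which also touches the overlap of the first exons of Hspd1 and Hspe1 (chr1:55088132-55088243). Together the 10 genes made up 0.469% to 0.485% of all counts in untreated Scrambled cells, 0.505% to 0.512% with IAMP siR-1 and 0.656% to 0.682% with IAMP siR-2.

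**Figure D1:**
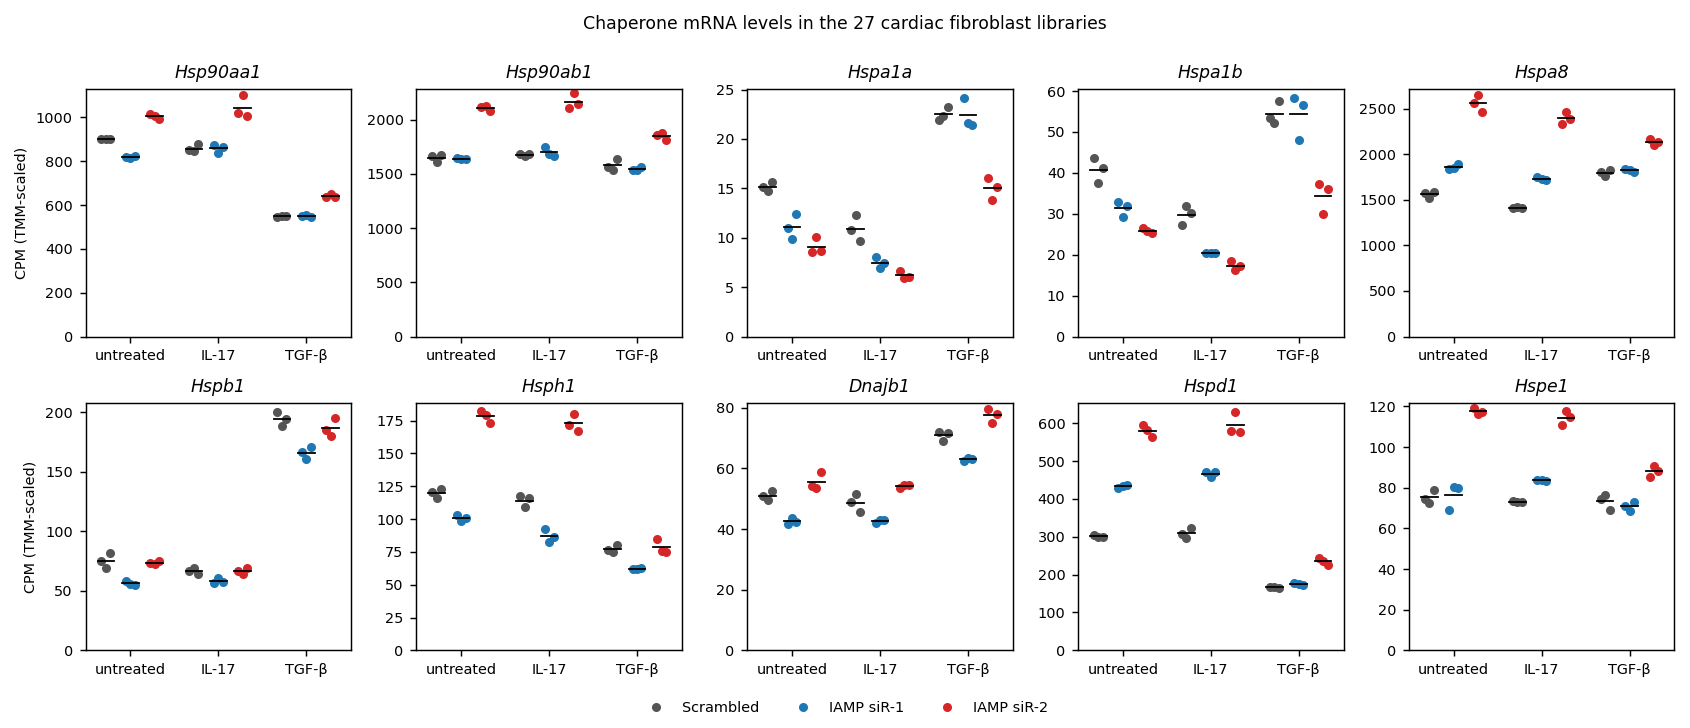
CPM of each chaperone gene (vertical axes, CPM scaled with TMM) in the 27 CF libraries, grouped by experiment and siRNA; points are libraries and lines are group means. Hspd1 and Hspa8 step up from Scrambled to siR-1 to siR-2 in untreated and IL-17 cells, while Hspa1a and Hspa1b step down.

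In untreated CFs, IAMP siR-1 lowered more chaperone mRNAs than it raised, whereas IAMP siR-2 did the opposite. By edgeR's quasi-likelihood test at a Benjamini-Hochberg adjusted p of at most 0.05 over all genes tested (called genes), siR-1 raised 2 of the 10 genes and lowered 6, where 19.5% and 20.4% of the 19669 genes tested were called in these directions. For siR-2 the counts were 6 raised and 2 lowered, against 24.4% and 25.0% of all genes. None of the 10 reached a log2 fold change of 1, which 4.76% (siR-1) and 10.7% (siR-2) of all genes passed in either direction. The median log2 fold change of the 10 was -0.20 for siR-1 and 0.24 for siR-2, beside -0.02 for all genes in both. Both siRNAs were compared with the same 3 Scrambled libraries, and nothing in the labels says that the 3 libraries of a group came from separate cultures, so the p values measure a spread that may be technical.

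Hspd1 (HSP60), which folds proteins imported into mitochondria, rose with both siRNAs. Its levels were 305.7, 300.2 and 300.2 CPM with Scrambled, 428, 435 and 437 under siR-1 and 594, 583 and 565 under siR-2, so that the 3 groups did not overlap. The log2 fold changes were 0.52 (SE 0.0279, edgeR adjusted p = 2.77e-10) and 0.92 (SE 0.0281, edgeR adjusted p = 8.3e-14). Its lid-forming partner Hspe1 (HSP10) was at 74.5, 72.6 and 79.1 CPM with Scrambled and 69.2, 80.4 and 79.6 with siR-1, which overlapped (log2 fold change 0.01, 95% interval -0.09 to 0.11). With siR-2, Hspe1 reached 119, 116 and 117 CPM, a rise of 0.62 on the log2 scale (edgeR adjusted p = 1.78e-08). The ratio of Hspd1 to Hspe1 per kilobase was 2.12 to 2.31 in Scrambled, 3.02 to 3.45 in siR-1 and 2.69 to 2.79 in siR-2 libraries.

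Hspa8, the housekeeping HSP70, also rose with both siRNAs. It was at 1577, 1521 and 1580 CPM with Scrambled, 1839, 1843 and 1896 under siR-1, and 2560, 2651 and 2464 under siR-2. The log2 fold changes were 0.25 (SE 0.0294, edgeR adjusted p = 3.25e-06) and 0.70 (SE 0.0295, edgeR adjusted p = 4.8e-12). For the HSP90 pair the siRNAs differed. Hsp90ab1 had 1665, 1605 and 1673 CPM with Scrambled and 1643, 1637 and 1640 with siR-1, overlapping groups whose log2 difference was -0.01 (95% interval -0.06 to 0.04). It rose to 2114, 2125 and 2082 CPM with siR-2, by 0.34 on the log2 scale (edgeR adjusted p = 1.15e-08). Hsp90aa1 was within 899.5 to 902.1 CPM in the Scrambled libraries, fell to 816, 821 and 824 CPM with siR-1 (log2 fold change -0.14, edgeR adjusted p = 0.000223) and rose to 994, 1007 and 1015 CPM with siR-2 (log2 fold change 0.14, edgeR adjusted p = 0.00017). All 3 groups of Hsp90aa1 were separate, with fold changes of 0.907 and 1.10.

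The inducible HSP70 genes went down with both siRNAs. Hspa1b was at 43.7, 37.5 and 41.3 CPM with Scrambled, 32.8, 29.2 and 31.9 under siR-1 and 26.4, 25.7 and 25.3 under siR-2, with no overlap (log2 fold changes -0.39 and -0.68, edgeR adjusted p = 5.65e-05 and 5.68e-08). Hspa1a was at 15.2, 14.8 and 15.6 CPM, then 11.0, 9.91 and 12.5, then 8.57, 10.03 and 8.66, its 2 knockdown groups meeting near 10 CPM. Its log2 fold changes were -0.46 and -0.76 (edgeR adjusted p = 0.000432 and 1.28e-06). Of the HSP70 cochaperones, Hsph1 fell from 116 to 123 CPM to 98.2 to 103 under siR-1 and rose to 173 to 182 under siR-2 (log2 fold changes -0.26 and 0.55, edgeR adjusted p = 9.71e-06 and 4.3e-10). Dnajb1, which stimulates the ATPase of HSP70, fell by 0.27 on the log2 scale with siR-1 (49.5 to 52.6 against 41.7 to 43.5 CPM, edgeR adjusted p = 0.000226). With siR-2, Dnajb1 was at 53.6 to 58.9 CPM, a log2 difference of 0.10 that was not called (95% interval 0.01 to 0.20, edgeR adjusted p = 0.0855) but was called when siR-2 replicate 2 was left out (0.14, edgeR adjusted p = 0.0432). Hspb1, a small heat-shock protein that binds unfolding proteins and actin, had 74.9, 69.2 and 82.0 CPM with Scrambled and 57.9, 55.7 and 54.8 with siR-1 (log2 fold change -0.43, edgeR adjusted p = 3.49e-06). With siR-2 it was at 73.7, 72.7 and 74.8 CPM, within the Scrambled range (log2 difference -0.05, 95% interval -0.15 to 0.05).

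**Figure D2:**
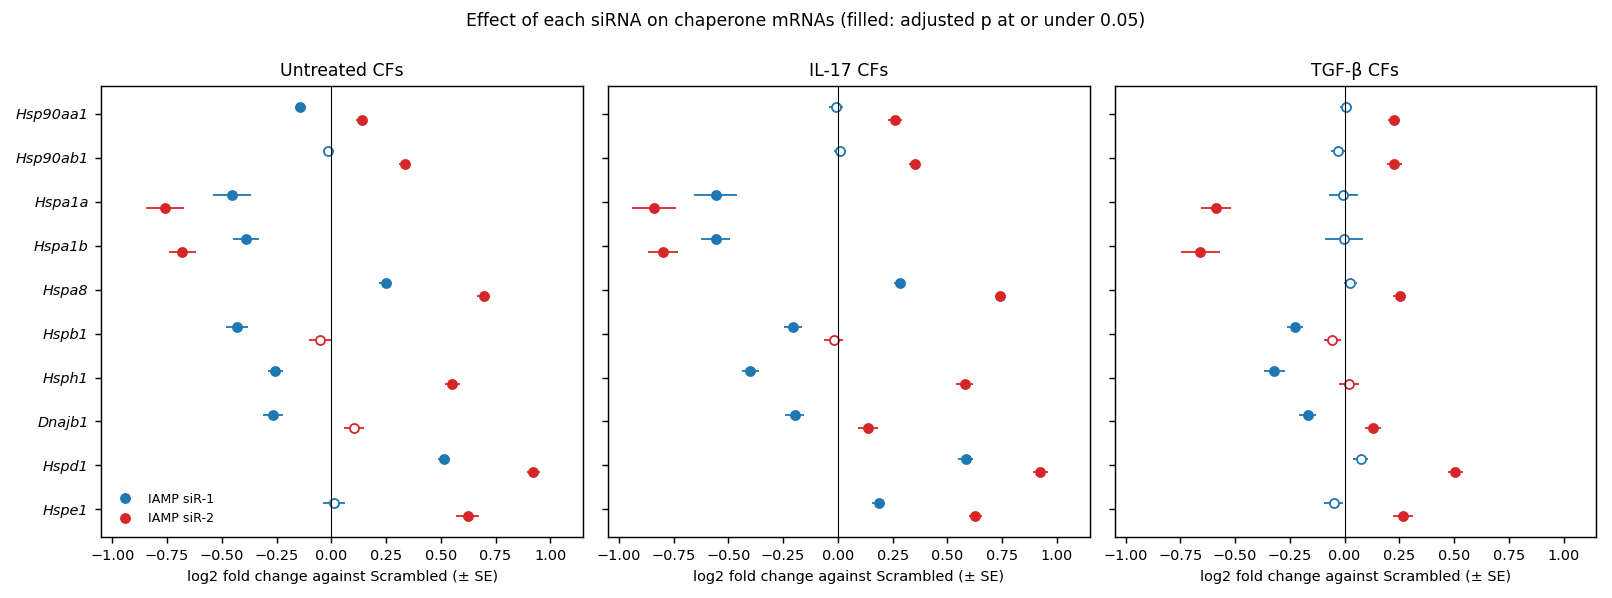
Log2 fold change against Scrambled (horizontal axis) of each chaperone gene with IAMP siR-1 and IAMP siR-2 in untreated, IL-17 and TGF-β CFs; points are estimates, bars are standard errors, and filled points were called. In untreated cells Hsp90aa1 and Hsph1 were called on opposite sides of 0 with the 2 siRNAs (Hsph1 -0.26 and 0.55), whereas Hspd1, Hspa8, Hspa1a and Hspa1b were called on the same side. Dnajb1 and Hsp90ab1 also lie on opposite sides, but Dnajb1 was not called with siR-2 and Hsp90ab1 was not called with siR-1.

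Set directly against siR-1 in untreated cells, siR-2 gave higher levels of 8 genes and lower levels of 2, with 22.7% and 22.8% of all genes called in those directions. The largest difference was that of Hsph1 (log2 0.81, SE 0.0337, edgeR adjusted p = 6.78e-12), followed by Hspe1 (0.61, SE 0.0507, edgeR adjusted p = 3.32e-08). The 2 lower genes were Hspa1a (-0.31, edgeR adjusted p = 0.00864) and Hspa1b (-0.29, edgeR adjusted p = 0.000746). The call of Hspa1a was lost without siR-1 replicate 3 (-0.22, edgeR adjusted p = 0.0677). The targeted mRNA itself was lower with siR-2 than with siR-1 (log2 -0.72, edgeR adjusted p = 6.12e-05).

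In IL-17-treated CFs the chaperone mRNAs were again split between the siRNAs. Hspd1, Hspa8 and Hspe1 were higher with siR-1 and Hspa1a, Hspa1b, Hsph1, Hspb1 and Dnajb1 lower, 3 and 5 of 10 genes, against 20.3% and 21.9% of the 19906 genes tested. With siR-2, 7 genes were higher and 2, Hspa1a and Hspa1b, lower, against 25.0% and 25.6% of all genes. A log2 fold change of at least 0.585 (1.5-fold) was reached by none of the 10 under siR-1 and by 5 under siR-2, Hspd1, Hspa8, Hspe1, Hspa1a and Hspa1b, where 13.5% and 21.7% of all genes passed. Median log2 fold changes of the 10 were -0.10 and 0.31, beside 0 and -0.02 for all genes.

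Hspd1 was at 307, 298 and 324 CPM with Scrambled and IL-17, at 472, 458 and 470.1 under siR-1 and at 579, 630.2 and 578 under siR-2, separate groups (log2 fold changes 0.58 and 0.92, edgeR adjusted p = 4.76e-10 and 5.22e-13). Hsp90aa1 had 849.9, 845 and 878 CPM with Scrambled and 874, 839 and 863 with siR-1, which overlapped (log2 difference -0.01, 95% interval -0.07 to 0.05). It rose with siR-2 to 1019, 1101 and 1005 CPM (log2 fold change 0.26, edgeR adjusted p = 1.57e-06). Hsp90ab1 behaved alike in that its siR-1 difference was not called (0.01, 95% interval -0.04 to 0.06) and it rose by 0.35 on the log2 scale with siR-2 (edgeR adjusted p = 4.28e-09). For Hspa1b the levels were 27.2, 32.0 and 30.1 CPM with Scrambled, 20.4 in each siR-1 library, and 18.5, 16.2 and 17.3 with siR-2, again without overlap (log2 fold changes -0.56 and -0.80, edgeR adjusted p = 2.82e-06 and 2.11e-08). Hsph1 fell under siR-1 and rose under siR-2 (log2 fold changes -0.40 and 0.58, edgeR adjusted p = 2.77e-07 and 1.26e-09). Dnajb1 rose with siR-2 by 0.14 on the log2 scale (edgeR adjusted p = 0.0149), a call that was lost without Scrambled replicate 3 (0.09, edgeR adjusted p = 0.126) or siR-2 replicate 3 (0.12, edgeR adjusted p = 0.0594), and when the 2 IL-17 Scrambled libraries with Alb counts were left out together (0.07). Hspb1 fell with siR-1 (-0.20, edgeR adjusted p = 0.000702), and its siR-2 difference was not called (-0.02, 95% interval -0.10 to 0.06).

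Between the siRNAs under IL-17, 8 genes were higher with siR-2 and Hspa1a and Hspa1b lower, where 23.1% of all genes were called higher and 23.1% lower. Hsph1 again differed most, by 0.98 on the log2 scale (82.6 to 92.5 against 167 to 180.0 CPM, edgeR adjusted p = 2.8e-12). The difference in Hspa1a (-0.28, edgeR adjusted p = 0.0295) was no longer called without siR-1 replicate 1 (-0.23, edgeR adjusted p = 0.112), siR-1 replicate 3 (-0.29, edgeR adjusted p = 0.0557), siR-2 replicate 2 (-0.25, edgeR adjusted p = 0.0964) or siR-2 replicate 3 (-0.26, edgeR adjusted p = 0.0804).

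In TGF-β-treated CFs, the siR-1 differences of most chaperones were small. With siR-1, 0 of the 10 genes were called higher by edgeR, where 11.7% of the 19891 genes tested were, with 1 (Hspd1) at an unadjusted p under 0.05 and 0 called by DESeq2. Hsph1, Hspb1 and Dnajb1, 3 of 10, were lower, against 11.4% of all genes. With siR-2, 6 genes were higher and Hspa1a and Hspa1b lower, against 15.1% and 14.8% of all genes. Past 1.5-fold were 0 genes under siR-1 and only Hspa1b under siR-2, where 4.36% and 7.51% of all genes passed. The medians of the 10 were -0.02 and 0.18, beside 0 and 0.01 for all genes.

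Hspd1 had 168, 166 and 164 CPM with Scrambled and TGF-β, and 178, 174 and 172 with siR-1, a log2 difference of 0.07 (95% interval 0.01 to 0.14, edgeR adjusted p = 0.141). It rose to 243, 237 and 227 CPM with siR-2 (log2 fold change 0.51, edgeR adjusted p = 4.58e-09). Hspa8 was at 1799, 1755 and 1821 CPM with Scrambled and 1839, 1830.0 and 1804 with siR-1, which overlapped (0.03, 95% interval -0.03 to 0.09), and at 2163, 2105 and 2128 with siR-2 (0.25, edgeR adjusted p = 5.44e-06). The HSP90 genes rose with siR-2 by like amounts, Hsp90aa1 from 545 to 549 CPM to 635 to 649.5 (0.23, edgeR adjusted p = 1.16e-05) and Hsp90ab1 from 1535 to 1637 CPM to 1809 to 1874 (0.23, edgeR adjusted p = 3.99e-05). With siR-1, their log2 differences were 0.01 (95% interval -0.05 to 0.06) and -0.03 (95% interval -0.09 to 0.03). Hspa1b was at 53.5, 52.2 and 57.6 CPM with Scrambled, overlapping the 58.4, 48.0 and 56.7 with siR-1 (0.00, 95% interval -0.17 to 0.17), and fell to 37.2, 29.9 and 36.1 with siR-2 (-0.66, edgeR adjusted p = 9.4e-05). Hspa1a fell with siR-2 too (-0.59, edgeR adjusted p = 4.13e-06). Hsph1 fell from 75.2 to 80.5 CPM to 61.6 to 62.7 with siR-1 (-0.32, edgeR adjusted p = 8.1e-05), while its siR-2 levels of 74.8 to 84.9 CPM met those of Scrambled (0.02, 95% interval -0.07 to 0.11). The siR-2 rise of Dnajb1 (0.13, edgeR adjusted p = 0.0164) was lost without Scrambled replicate 2 (0.11, edgeR adjusted p = 0.0618), without siR-2 replicate 1 (0.11, edgeR adjusted p = 0.0907) and without the 2 libraries with Alb counts (0.125). Between the siRNAs under TGF-β, 8 genes were higher with siR-2 and 2 lower, against 12.0% and 12.0% of all genes. The call of Hspb1 (0.17, edgeR adjusted p = 0.0033) was lost without the libraries with Alb counts (0.11).

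The siRNA effects were then compared between stimulated and untreated cells in 1 fit of all 27 CF libraries, as a difference of log2 fold changes, in which a shift common to a whole table cancels. For IL-17, none of the 10 genes had a called difference with either siRNA, where 1.73% (siR-1) and 1.64% (siR-2) of the 22359 genes tested were called in either direction. At an unadjusted p under 0.05, edgeR gave 4 of the 10 genes with siR-1 (3 higher, 1 lower) and 1 with siR-2. Over all 22359 genes, 2488 (siR-1) and 2105 (siR-2) passed this threshold in either direction. DESeq2 called 2 and 1 of the 10 genes, all higher, where it called 290 and 214 of all genes higher. The siR-1 differences nearest to a call were those of Hspb1 (0.23, 95% interval 0.10 to 0.36, edgeR adjusted p = 0.0608) and Hsp90aa1 (0.14, 95% interval 0.06 to 0.22, edgeR adjusted p = 0.0775). The first was called without untreated Scrambled replicate 2 (0.29, edgeR adjusted p = 0.00654) and the second without IL-17 Scrambled replicate 3 (0.15, edgeR adjusted p = 0.0446) or IL-17 siR-2 replicate 2 (0.14, edgeR adjusted p = 0.0293).

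For TGF-β, the siR-1 effect differed from that in untreated cells for 6 of the 10 genes, 4 upward and 2 downward, against 9.20% and 10.3% of all genes. The siR-2 effect differed for 5 genes, all downward, against 15.3% of all genes, and for 0 upward, against 14.2%, with 0 at an unadjusted p under 0.05 and 0 by DESeq2. The effects on Hspd1 and Hspa8 were lower under TGF-β with both siRNAs, and with siR-1 neither gene was called there. The Hspd1 effect was lower by 0.45 on the log2 scale with siR-1 (SE 0.0477, edgeR adjusted p = 1.17e-08) and by 0.44 with siR-2 (SE 0.0476, edgeR adjusted p = 7.39e-09). The largest difference with siR-2 was that of Hsph1 (-0.55, SE 0.0617, edgeR adjusted p = 1.21e-08), which rose in untreated cells and not under TGF-β. The siR-1 fall of Hspa1a and Hspa1b was not seen under TGF-β, a difference of 0.44 (edgeR adjusted p = 0.00888) and 0.38 (edgeR adjusted p = 0.0101). Among the smaller differences, that of Hspb1 with siR-1 (0.20, edgeR adjusted p = 0.0245) was lost when any 1 of untreated Scrambled replicate 3, untreated siR-1 replicates 2 or 3, TGF-β Scrambled replicate 2 or TGF-β siR-1 replicate 3 was left out (0.13 to 0.19), and that of Hsp90ab1 with siR-2 (-0.13, edgeR adjusted p = 0.0129) when any 1 of 7 libraries was (-0.11 to -0.09). The knockdown of 4930523C07Rik was itself less deep under TGF-β, the log2 fold change differing by 0.73 with siR-1 (edgeR adjusted p = 0.000541) and 1.02 with siR-2 (edgeR adjusted p = 3.84e-06), and its part in the chaperone differences was not tested.

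Next, the stimuli were compared in Scrambled cells. Each stimulus was deposited as a table of its own, so that the stimulus and the batch of libraries cannot be told apart. With TGF-β, 5 chaperone genes were higher and 3 lower, where 28.0% and 27.5% of the 22359 genes were called, and Hspb1 alone passed a log2 fold change of 1, which 20.8% of all genes did. Hspb1 was at 69.2 to 82.0 CPM in untreated and 200.4, 188 and 194 CPM in TGF-β cells (log2 fold change 1.37, SE 0.0456, edgeR adjusted p = 2.17e-22). Hspa1a, Dnajb1, Hspa1b and Hspa8 rose by 0.57, 0.48, 0.42 and 0.20. Hspd1 fell to 0.55 times its level, from 300.2 to 305.7 CPM to 164 to 168 CPM (-0.86, SE 0.034, edgeR adjusted p = 1.49e-20). Hsp90aa1 fell from about 900.6 CPM to 545 to 549 CPM (-0.72, SE 0.0283, edgeR adjusted p = 1.66e-20) and Hsph1 by 0.63 on the log2 scale (edgeR adjusted p = 3.56e-14). Hsp90ab1 did not follow its paralog, with overlapping levels of 1605 to 1673 and 1535 to 1637 CPM (-0.06, 95% interval -0.12 to -0.01, edgeR adjusted p = 0.067), although it was called when any 1 of 6 libraries was left out of the fit (-0.09 to -0.08). The level of Hsp90ab1 over that of Hsp90aa1, per kilobase, was therefore 3.67 to 3.91 in TGF-β and 2.33 to 2.44 in untreated Scrambled cells. Endothelial, smooth muscle and macrophage markers also differed between these tables, with macrophage and leukocyte sums of 149 to 157 CPM under TGF-β, and their part was not tested.

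With IL-17, 4 of the 10 genes were lower than in untreated Scrambled cells, against 6.10% of all genes, and 0 were higher by edgeR (0 at an unadjusted p under 0.05 and 0 by DESeq2), against 6.13%. The 4 were Hspa1a (14.8 to 15.6 against 9.69 to 12.3 CPM, log2 fold change -0.48, edgeR adjusted p = 0.000168), Hspa1b (-0.45, edgeR adjusted p = 5.17e-05), Hspb1 (-0.18, edgeR adjusted p = 0.0061) and Hspa8 (-0.14, edgeR adjusted p = 0.000325). Every one of these calls was lost when the CF libraries with Alb counts were left out, which left 2 untreated and 1 IL-17 Scrambled library (log2 differences -0.28, -0.35, -0.07 and -0.13 in the same order). Hspb1 also lost its call without untreated Scrambled replicate 3 alone (-0.11, edgeR adjusted p = 0.144). The HSP90 genes differed by -0.07 (Hsp90aa1, 95% interval -0.13 to -0.02, edgeR adjusted p = 0.109) and 0.02 (Hsp90ab1, 95% interval -0.03 to 0.08).

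**Figure D3:**
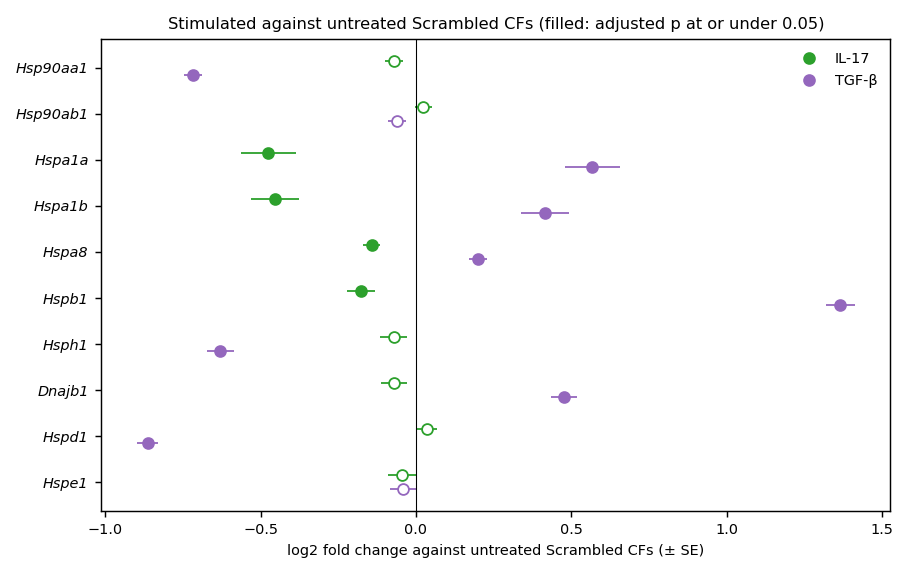
Log2 fold change of each chaperone gene (horizontal axis) in Scrambled CFs with IL-17 or TGF-β against untreated; points are estimates, bars are standard errors, and filled points were called. Hspb1 lies farthest to the right with TGF-β (1.37) and Hspd1 farthest to the left (-0.86), while the IL-17 values lie between -0.48 and 0.035.

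The wider chaperone network was read from lists of genes grouped by function. Mean levels of single list genes in the siRNA comparisons were scaled with TMM within their own experiment. Of 26 HSP90 family members and cochaperones in untreated cells, siR-1 raised 5 and lowered 9 (19.5% and 20.4% of all genes), while siR-2 raised 13 and lowered 8 (24.4% and 25.0% of all genes). Fkbp5, an immunophilin that joins HSP90 in steroid receptor complexes, fell with both (53.0 CPM with Scrambled, 32.0 with siR-1, 26.9 with siR-2), as did Aarsd1 (log2 fold changes -0.80 and -0.88). Ppid, a cyclophilin cochaperone of HSP90, rose from 41.8 to 78.1 CPM with siR-2 (log2 fold change 0.90, edgeR adjusted p = 1.19e-11). Under IL-17, siR-1 raised 5 of them and lowered 10 (20.3% and 21.9% of all genes), and siR-2 raised 13 and lowered 7 (25.0% and 25.6%). The TGF-β counts were 3 raised and 8 lowered for siR-1 (11.7% and 11.4% of all genes) and 9 raised and 1 lowered for siR-2 (15.1% and 14.8%). The list medians lay between -0.09 and 0.08 in these 6 comparisons, beside -0.02 to 0.01 for all genes.

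Among 22 HSP70 relatives and exchange factors in untreated cells, siR-1 raised 7 and lowered 6 (19.5% and 20.4% of all genes), and siR-2 raised 9 and lowered 9 (24.4% and 25.0%). The siR-1 rise was led by the endoplasmic reticulum chaperones Hyou1 (167 to 299.6 CPM, log2 0.84, edgeR adjusted p = 1.82e-12) and Hspa5, the gene for BiP (775 to 1163 CPM, 0.59, edgeR adjusted p = 2.77e-10). The 22 J-domain genes included 9 that siR-1 raised and 6 that it lowered, and 12 that siR-2 raised and 7 that it lowered, against the same shares of all genes. The largest change among them was the fall of Dnajc9, a histone chaperone partner, from 46.6 to 22.1 CPM under siR-1 and 19.6 CPM under siR-2 (log2 fold changes -1.08 and -1.25, edgeR adjusted p = 5.51e-10 and 3.34e-11). The collagen chaperone gene Serpinh1 rose with siR-1 (0.23, edgeR adjusted p = 8.82e-06) and fell with siR-2 (-0.15, edgeR adjusted p = 0.000656).

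Of the cytosolic chaperonin TRiC and prefoldin, 15 genes, siR-1 raised 2 and lowered 7 in untreated cells (19.5% and 20.4% of all genes) and siR-2 raised 9 and lowered 1 (24.4% and 25.0%), with medians of -0.10 and 0.16. The prefoldin gene Pfdn1 rose with both (0.62 and 0.54, edgeR adjusted p = 8.34e-09 and 2.32e-08). The 1 gene lower with siR-2 was Cct2, a TRiC subunit, which dropped from 383 to 115 CPM (log2 fold change -1.74, edgeR adjusted p = 7.53e-16). In the other tables Cct2 fell with siR-2 by 1.64 (IL-17) and 0.59 (TGF-β) on the log2 scale, and its siR-1 log2 difference in untreated cells was 0.04 and not called. Of the 7 small heat-shock protein genes tested, 5 were higher with TGF-β in Scrambled cells (28.0% of all genes), with a median of 0.67 beside 0.02 for all genes. Hspb6 (9.10 to 27.1 CPM, log2 fold change 1.58), Hspb8 (1.01) and the αB-crystallin gene Cryab (0.67) were among them, each a holdase known from muscle. Hspb7, a small heat-shock protein of heart muscle, rose with siR-1 (45.6 to 64.4 CPM) and fell with siR-2 (24.2 CPM) in untreated cells. Of the heat-shock factors and their binding partners, 6 genes, siR-1 lowered Hsf2 and no other was called (20.4% of all genes lower), whereas siR-2 raised 4 (24.4% of all genes). Hsf1, the main stress-responsive factor, was at 28.0 to 30.5 CPM with Scrambled and 37.0 to 38.8 with siR-2 (0.37, edgeR adjusted p = 7.74e-05), and its siR-1 difference was 0.13 (edgeR adjusted p = 0.0978). The mRNA of the HSP90 client Hif1a rose with both siRNAs in the 3 experiments, by 0.29 to 0.45 on the log2 scale, from 194 to 203 CPM to 253 to 257 and 269 to 281 CPM in untreated cells. By quantitative PCR in knockdown CFs, the study reported no rise of this transcript, although HIF-1α protein was higher.

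Immediate-early genes, which respond rapidly to stimulation, moved in the same libraries. Of 12 such genes in untreated cells, siR-1 lowered 9 and raised 2 (20.4% and 19.5% of all genes) and siR-2 lowered 6 and raised 5 (25.0% and 24.4%), with Egr1 at 93.6, 40.7 and 33.8 CPM in Scrambled, siR-1 and siR-2 cells. Their summed level was 490 to 523 CPM in untreated Scrambled, 385 to 395 in siR-1 and 410 to 434 in siR-2 libraries. Their part in the chaperone differences was not tested.

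**Figure D4:**
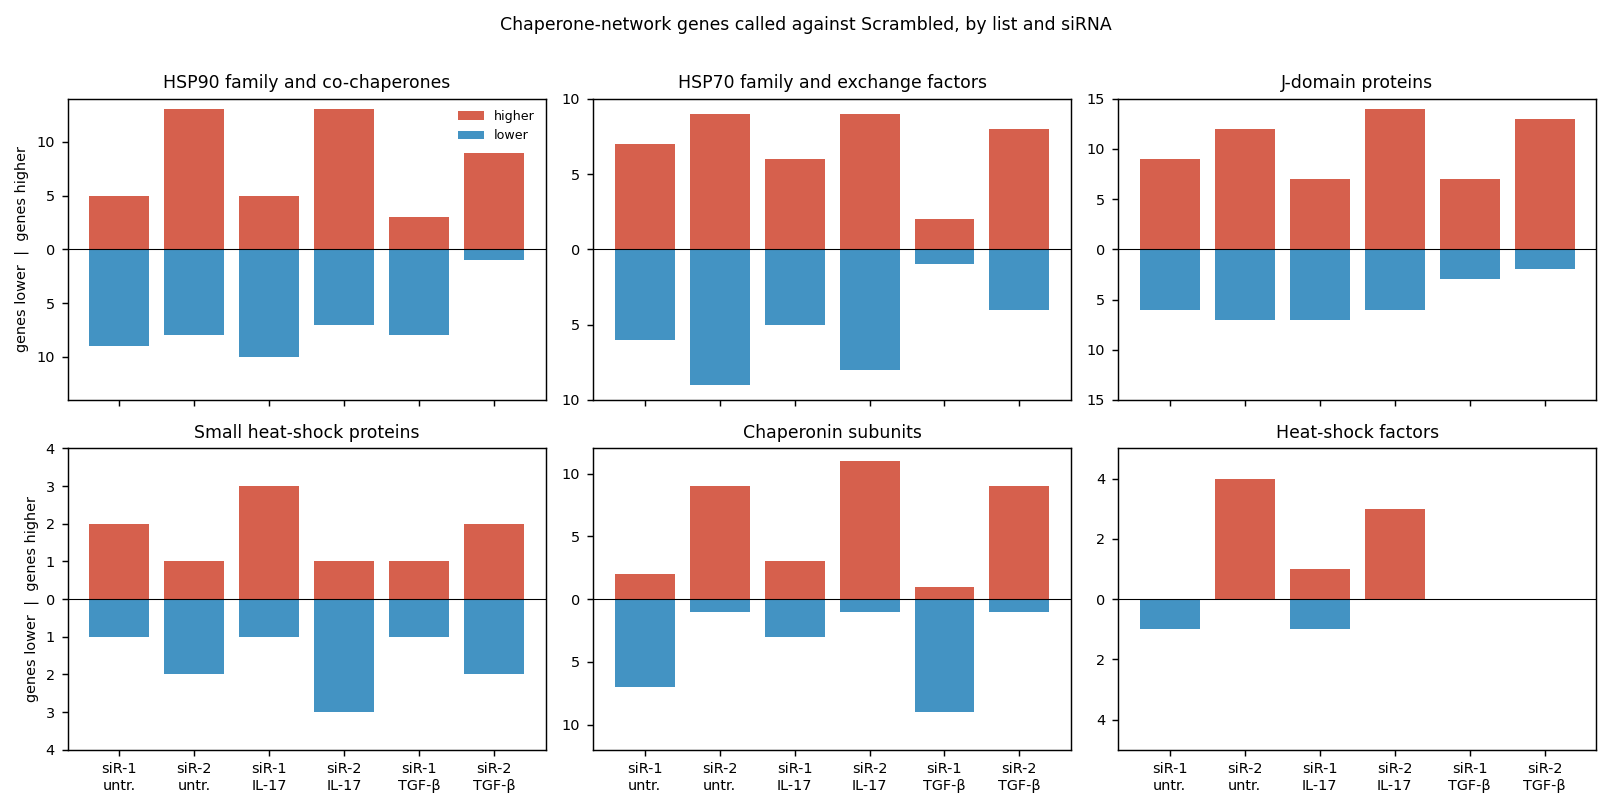
Number of genes (vertical axes) called higher (bars above 0) and lower (bars below 0) against Scrambled in each of 6 functional lists, for both siRNAs in untreated, IL-17 and TGF-β CFs. The chaperonin bars reach mostly below 0 with siR-1 in untreated cells (2 higher, 7 lower) and mostly above 0 with siR-2 (9 higher, 1 lower).

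Which genes follow a chaperone most closely across CFs was read from Pearson correlations of log2 levels over the 27 CF libraries among 13330 genes of at least 1 CPM. These are descriptions, since the points share tables, siRNAs and stimuli. Hsp90ab1 was most like Ahsa1 (r = 0.97), the activator of the HSP90 ATPase, Wdr61 (0.97), Ppid (0.97), Vps26a (0.96) and Gtf2f1 (0.96). Hsp90aa1 was most like Cab39, Kpna1, Thbs1, Cct8 and Serbp1 (0.99 each), and its r with Hsp90ab1 was 0.66. Hspa1b was most like Hspa1a (0.98), then Fzd8, Phlda3, Atg16l2 and Pdlim3 (0.955 to 0.961).

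In whole hearts, none of the 10 chaperone genes was called between KO and Het, where 0% of the 16675 genes tested were called by edgeR. Over all genes, 601 had an unadjusted p under 0.05 in edgeR and DESeq2 called 3 higher and 2 lower, and of the 10 chaperones 0 passed either. The differences of the steadier genes were bounded closely. Hsp90ab1 was at 953.6, 1012, 971 and 1035 CPM in Het and 993, 962, 976 and 1038 in KO (log2 difference 0.00, 95% interval -0.09 to 0.08), and Hspd1 differed by 0.02 (95% interval -0.09 to 0.13). Hspa1a spread widely within both groups, with 5.82, 15.0, 22.8 and 37.6 CPM in Het and 15.1, 29.8, 7.93 and 36.4 in KO, so that its interval ran from -1.19 to 1.46 and changes of more than 2-fold could not be told from none. The immediate-early list and the other chaperone lists had 0 called genes as well.

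Within the hearts, Hsp90ab1 was the highest per kilobase (331 CPM per kb in Het), followed by Hspb1 (208 CPM per kb) and Hspa8 (164 CPM per kb), whereas Hsp90aa1 had 13.5 CPM per kb. Hsp90ab1 was thus 21.0 to 30.8 times Hsp90aa1 per kilobase in Het and 23.0 to 32.2 times in KO hearts. Undivided by length, Hspa8 (705.6 CPM in Het) lay above Hspb1 (214.4 CPM). At the lower end, Hspa1a (6.84 CPM per kb), Hspa1b (6.49), Hsph1 (4.64) and Dnajb1 (4.09) had overlapping or adjoining levels. CF and heart tables were normalized separately and the hearts held other cell types, with the cardiomyocyte gene Myh6 at 15200 to 17800 CPM, so no level was tested between them. Side by side, Hspa1a per kilobase was 1.03 to 1.08 times Hspa1b in Het hearts and 0.328 to 0.373 times in untreated Scrambled CFs.

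Several chaperones varied together from heart to heart. Against Hspa1b, 9 relations were computed over the 8 hearts on log2 levels, with exact permutation p values (2-sided) adjusted by Benjamini-Hochberg over the 9. Hspa8 gave r = 0.93 (exact p = 0.0012, adjusted 0.0054) and rho = 0.88 (exact p = 0.0072, adjusted 0.016), with r = 0.78 without the 2 hearts farthest from the median. Hsp90aa1 gave r = 0.91 (exact p = 0.0019, adjusted 0.0057) and rho = 0.91 (exact p = 0.0046, adjusted 0.014), with 0.72 without those hearts. Hspb1 (0.83), Hsph1 (0.83) and Dnajb1 (0.78) passed as well (adjusted exact p = 0.017, 0.017 and 0.038), with rho of 0.86, 0.91 and 0.83 (adjusted exact p = 0.02, 0.014 and 0.022), and had r of 0.58, 0.77 and 0.59 without the 2 hearts. Hspa1a, which cannot be fully told apart from Hspa1b, gave r = 0.998 (adjusted exact p = 0.00045) and rho = 0.98 (adjusted exact p = 0.0036). Since shared reads can produce this relation, it does not test common variation. Its place among the 9 also makes the adjusted p of the others that passed smaller. Hsp90ab1 did not pass (r = 0.60, adjusted exact p = 0.15, and rho = 0.60, adjusted exact p = 0.17), nor did Hspe1 (r = 0.46, adjusted exact p = 0.27, and rho = 0.38, adjusted exact p = 0.4) or Hspd1 (r = 0.06, adjusted exact p = 0.88, and rho = 0.10, adjusted exact p = 0.84). Within Het and within KO hearts, r was 0.96 and 0.92 for Hspa8 and 0.99 and 0.89 for Hsp90aa1, with 4 hearts each and no test. For the genes that did not pass, r in Het and KO was -0.06 and 0.97 (Hspe1), -0.36 and 0.78 (Hspd1), and 0.77 and 0.4 (Hsp90ab1).

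The same hearts were high in part of the immediate-early genes, whereas Jun (r = 0.219 with Hspa1b) and Ier3 (-0.136) did not follow. Of 14458 genes of at least 1 CPM, 4.21% had r of 0.8 or more with Hspa1b, against 6 of 12 immediate-early genes (Btg2 0.98, Atf3 0.98, Egr1 0.98, Fos 0.92), 6 of 22 J-domain genes and 3 of 22 HSP70 relatives (Hspa1l 0.93, Bag3 0.93, Hspa4 0.91). The other chaperone lists held 1 of 26 (HSP90 family and cochaperones), 1 of 4 (heat-shock factors), 0 of 14 (chaperonin subunits) and 0 of 7 (small heat-shock proteins). None of the cell type marker genes reached 0.8. On the negative side, the 4 erythroid markers had r of -0.819 (Alas2), -0.705 (Hba-a1), -0.667 (Hbb-bs) and -0.644 (Hbb-bt). The 5 endothelial markers were mixed, with Cdh5 at -0.778, Tie1 at -0.438, Emcn at 0.056, Kdr at 0.237 and Pecam1 at 0.711. What part these markers had in the variation from heart to heart was not tested.

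**Figure D5:**
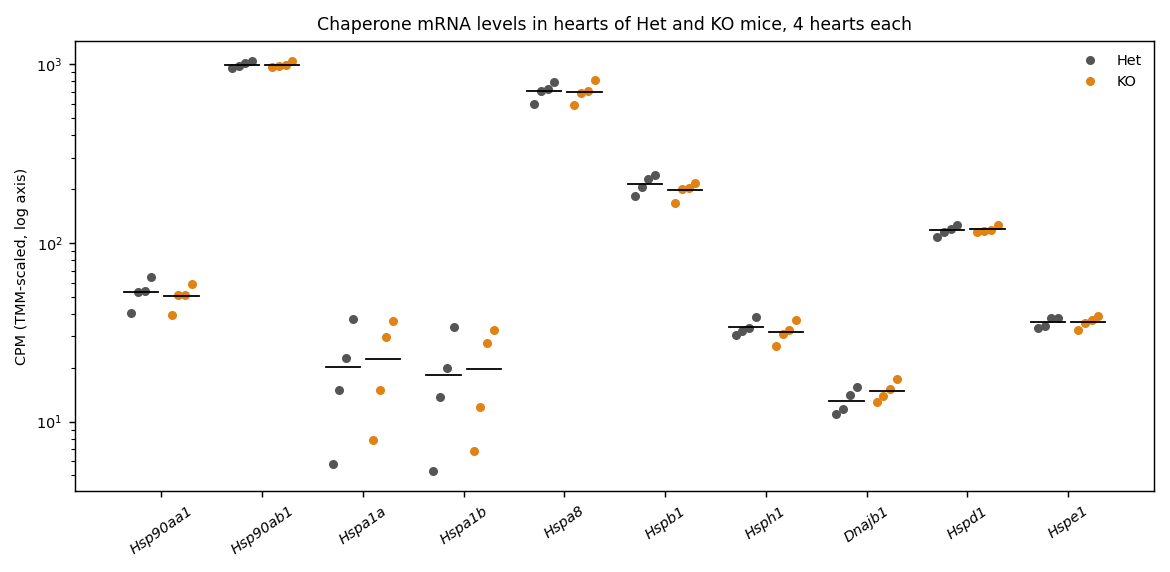
CPM (log axis) of each chaperone gene in the 4 Het and 4 KO hearts; points are hearts and lines are group means. Hspa1a and Hspa1b spread from about 5 to 38 CPM in both groups, whereas Hsp90ab1 stays between 953.6 and 1038 CPM.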

How the data were processed

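mRNA selected with oligo(dT) beads was sequenced in 27 CF libraries and 8 hearts. The authors trimmed reads with Cutadapt, aligned them to GRCm38 with HISAT2, quantified genes with StringTie, tested with DESeq2, and deposited 4 tables, of estimated counts for the 3 CF experiments and of counts for the hearts. The CF values were whole numbers, and 6 was the most frequent value among genes seen in only 1 library of a table. Their depth may therefore overstate the reads and gave no counting intervals, and fits on values divided by 6 were tried. No column of any table was left unused (0), and no row lacked a gene name (0).

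In R 4.3.3, each table was fitted with edgeR 4.0.16 (limma 3.58.1): filterByExpr, TMM, robust quasi-likelihood test, Benjamini-Hochberg adjustment over all genes tested, calls where the adjusted p did not exceed 0.05, and a second count past a log2 fold change of 1 (0.585 in stimulated siRNA comparisons). Stimuli and differences between siRNA effects came from 1 fit of all 27 CF libraries, hearts from 1 fit of 8. DESeq2 1.42.0, other normalization and filters, fits of the compared groups alone, a replicate block, and leaving out libraries were the alternatives. Gene lengths and positions came from GENCODE vM21, which held 55141 of the 55487 identifiers. The length of a gene was that of all its annotated exons joined over transcripts. The scripts were tested on simulated data.

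The 10 genes, the lists and the tests were chosen with earlier results of these data known. Named list genes were the up to 3 called genes with the largest change per list and comparison whose mean reached 1 CPM in a group, with other list genes named after their values were seen. Outliers were sought among the 4 hearts of a group only.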

Additional observations from a re-analysis of the deposited data

Results flagged for a closer look

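For 11 effects of an siRNA on a chaperone mRNA, the effect under TGF-β differed from that in untreated CFs by edgeR's test of the difference, which is why they are listed. With IAMP siR-1 the log2 differences were 0.141 for Hsp90aa1 (edgeR adjusted p = 0.00987), 0.442 for Hspa1a (edgeR adjusted p = 0.00888), 0.381 for Hspa1b (edgeR adjusted p = 0.0101), -0.228 for Hspa8 (edgeR adjusted p = 4.27e-05), 0.198 for Hspb1 (edgeR adjusted p = 0.0245) and -0.448 for Hspd1 (edgeR adjusted p = 1.17e-08). With IAMP siR-2 they were -0.129 for Hsp90ab1 (edgeR adjusted p = 0.0129), -0.463 for Hspa8 (edgeR adjusted p = 3.51e-11), -0.438 for Hspd1 (edgeR adjusted p = 7.39e-09), -0.376 for Hspe1 (edgeR adjusted p = 1.39e-05) and -0.554 for Hsph1 (edgeR adjusted p = 1.21e-08). The differences share the untreated libraries, and the weaker knockdown of 4930523C07Rik under TGF-β moved with them and was not tested. In 20 tests of the 10 genes over the 4 hearts of each group, no heart stood apart by Dixon's criterion at its 95% level, which chance passes in about 1 of 20.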

How the results depend on the processing

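No called chaperone difference reversed under any alternative, and the 94 sign changes were of uncalled values (29 results, none above 0.133 on the log2 scale). RLE size factors, no low-count filter, fits of the compared groups alone and the replicate block moved no count of called chaperones by over 1.5 times. Adding Hspa1a to Hspa1b left 1 lower gene in place of 2 in each siR-2 comparison of the 3 experiments, by construction. DESeq2 gave 1 lower gene between the siRNAs under IL-17, and for the difference of effects under IL-17 it gave 2 higher genes with siR-1 and 1 with siR-2 in place of 0. A minimum of 10 counts in every library, and division by 6, each gave 2 higher genes for the siR-1 difference under IL-17 and 1 for the siR-2 difference under TGF-β, in place of 0; the cause was not tested. Leaving out the CF libraries with Alb counts, chosen after seeing the data, gave 0 lower genes with IL-17 in Scrambled cells in place of 4, with fewer samples, and ended the calls of Hspb1 for siR-1 (0.168) and Hsp90ab1 for siR-2 (-0.103) in the difference under TGF-β. Leaving out 1 library at a time gave 1 to 2 lower genes between the siRNAs in untreated and in IL-17 cells, 0 to 1 higher genes for the siR-1 difference under IL-17, 3 to 5 lower genes with IL-17 and 3 to 4 with TGF-β in Scrambled cells, 6 to 7 higher with siR-2 in untreated and in IL-17 cells, 5 to 6 with siR-2 under TGF-β, and 3 to 4 higher (siR-1) and 4 to 5 lower (siR-2) for the differences under TGF-β. Without TMM, 45 of 110 group levels moved by more than 1 SD.

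The replicate numbers did not pair the CF libraries, since deviations of same-numbered libraries correlated at -0.147 to 0.05 (untreated), -0.18 to 0.154 (IL-17) and -0.207 to 0.142 (TGF-β). With the replicate block, 150 log2 fold changes and 30 counts kept their side of the threshold. For the hearts no pairing was tried, and their columns carry no replicate number. The spread of Hspa1a and Hspa1b between hearts of a group, and 3 libraries per CF group, limit what small differences can be told from none.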
